A study of Mus musculus with 20 samples.

Results

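The levels of 10 imprinted genes are described across 20 libraries of MC38 tumour RNA: Igf2, H19, Igf2r, Cdkn1c, Dlk1, Meg3, Peg3, Plagl1, Mest and Grb10. They were found by symbol, and all 10 had a row among the 23402 rows of the expression table. MC38 is a mouse colon adenocarcinoma line, and the tumours were grown under the skin of mice. The 10 Control libraries came from tumours given vehicle, and the 10 P.T.ATBx libraries came from tumours given ATBx around the tumour. All 20 libraries share the MC38 line and the site. The labels name no agent, dose, schedule, mouse strain, age or sex, and do not expand ATBx. They call the cells cancer cells, although a subcutaneous tumour also holds host tissue. Since no label ties a library to its own animal, the p-values here reflect spread among libraries that may be partly technical. Igf2 and H19 were chosen by their measured difference in FPKM between these 2 groups, and the other 8 were added with that comparison known. The differences between groups are therefore given for all 10 genes as a description, with no p-value.

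An imprinted gene is read from the copy inherited from only 1 parent. Igf2 and H19 lie side by side and share enhancers. A control region between them binds the insulator protein CTCF on the maternal copy and is methylated on the paternal copy, so that Igf2 is read from the paternal and H19 from the maternal chromosome. The genes known as the imprinted gene network are highly expressed together in the embryo and fall after birth, and several of them control growth of muscle, fat and other mesodermal tissue. Igf2 and H19 are low in most adult mouse tissues and are often re-expressed in tumours. RNA levels summed over both parental copies do not show which copy was read.

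H19, Igf2 and Mest also carry microRNA genes, and their mature strands are shown because they are known products of these 3 loci besides the long RNAs. The sequences are from RefSeq, build GRCm38.p6, written 5′ to 3′ with the seed, bases 2 to 8, in capitals.
mmu-miR-675-5p, within H19: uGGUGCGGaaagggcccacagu
mmu-miR-675-3p: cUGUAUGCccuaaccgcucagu
mmu-miR-483-5p, within Igf2: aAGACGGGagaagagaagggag
mmu-miR-483-3p: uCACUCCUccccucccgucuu
mmu-miR-335-5p, within Mest: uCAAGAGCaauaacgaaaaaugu
mmu-miR-335-3p: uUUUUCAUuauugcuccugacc
The 6 strands have 6 different seeds. The rows of these microRNA genes were at 0 in all 20 libraries. An exact 0 in such a table can be a failed estimate, so the strands themselves were not measured here. The hairpins lie on chromosome 7 at 142577064 to 142577147 (Mir675, minus strand), on chromosome 7 at 142654924 to 142654996 (Mir483, minus strand) and on chromosome 6 at 30741299 to 30741396 (Mir335, plus strand).

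Igf2 has 4 transcription start sites in the RefSeq table of GRCm38.p6, and the 250 bases before the start nearest to its coding part are shown because they hold the most GC boxes of the 4. The window is chr7:142657497-142657746 on the minus strand, and it overlaps no annotated Igf2 exon. Capitals mark the GC box GGGCGG, searched on both strands.
Igf2 upstream window: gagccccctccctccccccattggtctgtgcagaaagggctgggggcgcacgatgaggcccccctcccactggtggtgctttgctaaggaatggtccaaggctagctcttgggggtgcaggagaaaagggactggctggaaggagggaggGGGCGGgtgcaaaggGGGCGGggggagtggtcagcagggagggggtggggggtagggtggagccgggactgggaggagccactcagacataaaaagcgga
This window holds 2 GC boxes and 6 CpG sites, and its GC content is 66.0%. A GC box is common: 32.7% of 32851 windows of the same length hold at least 1. TATAAA, found in 12.4% of the windows, was not in it. The table of levels gives 1 value per gene, so the use of single start sites was not measured.

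Levels are in FPKM, which corrects fragment numbers for the length of each gene and the depth of each library, so they can be compared between genes. The summed FPKM ran from 556770 to 752782 between libraries, and Rpph1 and Rmrp, small RNAs of the RNase P and MRP enzymes, took 7.75% to 20.5% of it. Relative depth, read from the spacing of low values, ran from 0.818 to 1.30. There were 4 libraries that stood apart from the rest by a median log2 distance above 0.1: Control 1, Control 3, P.T.ATBx 1 and P.T.ATBx 4. No 2 libraries were identical. Each list of genes used here as markers of other cell types summed to above 0 in every library, although single markers were at 0. Whether the tumour cells themselves express them was not measured. The summed level of 12 fibroblast markers lay between 2731 and 4193 FPKM for Control libraries and between 2754 and 4543 for P.T.ATBx libraries, with Postn at 0. The 8 adipocyte markers summed to 62.9 to 3080 FPKM in Control, highest in Control 3, and to 92.9 to 759 in P.T.ATBx. The 8 epithelial markers were lower, at 4.31 to 179 and 12.2 to 53.0 FPKM, with Cdx2, which marks intestinal epithelium, at 0 throughout. Since an exact 0 in such a table can be a failed estimate, the zeros of Postn and Cdx2 do not show absence. In bulk tissue, fewer cells of a type and less RNA per cell cannot be told apart.

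Igf2 encodes insulin-like growth factor 2, the paternally expressed growth factor at the head of this network, on chromosome 7 at 142650768 to 142666816 (minus strand, GRCm38). Its level in Control was 0.503 FPKM in the lowest library (Control 3), 0.924 at the median and 1.39 in the highest (Control 2). In P.T.ATBx it was 1.74 in the lowest library (P.T.ATBx 6), 2.26 at the median and 2.58 in the highest (P.T.ATBx 3). Every P.T.ATBx library was above every Control library, and the gap between the groups was narrower than the full range within each. Control averaged 0.962 ± 0.274 FPKM (SD, n = 10), against 2.23 ± 0.260 (SD, n = 10) after P.T.ATBx, a ratio of 2.32. The difference on the log2(FPKM + 1) scale was 0.73 (SE 0.07), a scale that understates the change of low genes: with a pseudocount of 0.1 it was 1.17.

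Low as these levels are, most could be read as whole numbers of fragments. The Igf2 values of 18 of 20 libraries are whole multiples of 1 unit per library within a tolerance of 0.05, which gives 36 to 94 fragments (median 61) in Control and 95.1 to 168 in P.T.ATBx. The nearest libraries of the groups were Control 2, with 82 fragments, and P.T.ATBx 6, with 95.1, which did not come out whole. Their exact Poisson 95% intervals, 1.11 to 1.73 FPKM and 1.41 to 2.13 FPKM, overlap and cover counting error only. On these counts the order of these 2 libraries is within counting error, while the group medians lie farther apart than either interval is wide.

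H19 encodes a maternally expressed long non-coding RNA that holds back growth in the embryo, on chromosome 7 at 142575530 to 142578146 (minus strand). Its level in Control was 30.7 FPKM in the lowest library (Control 3), 41.0 at the median and 61.1 in the highest (Control 7). In P.T.ATBx it was 52.5 in the lowest library (P.T.ATBx 6), 63.3 at the median and 102 in the highest (P.T.ATBx 2). The groups overlap: 7 P.T.ATBx libraries were above the highest Control library, and 7 Control libraries were below the lowest P.T.ATBx library. The means were 43.9 ± 10.4 FPKM (SD, n = 10) and 66.8 ± 13.5 (SD, n = 10), a ratio of 1.52, and the log2 difference was 0.61 (SE 0.12). Without the 4 libraries that stood apart, it was 0.49 (SE 0.13) for H19 and 0.69 (SE 0.08) for Igf2.

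Igf2 RNA was scarce beside H19 RNA in both groups. As a percentage of the H19 level of the same library, Igf2 ran from 1.55% (Control 7) to 3.49% (Control 1) in Control, with a median of 2.13%. In P.T.ATBx it ran from 2.36% (P.T.ATBx 2) to 4.11% (P.T.ATBx 3), with a median of 3.41%. Both ends of the P.T.ATBx range lay above those of Control, and the ranges overlap.

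**Figure D1:**
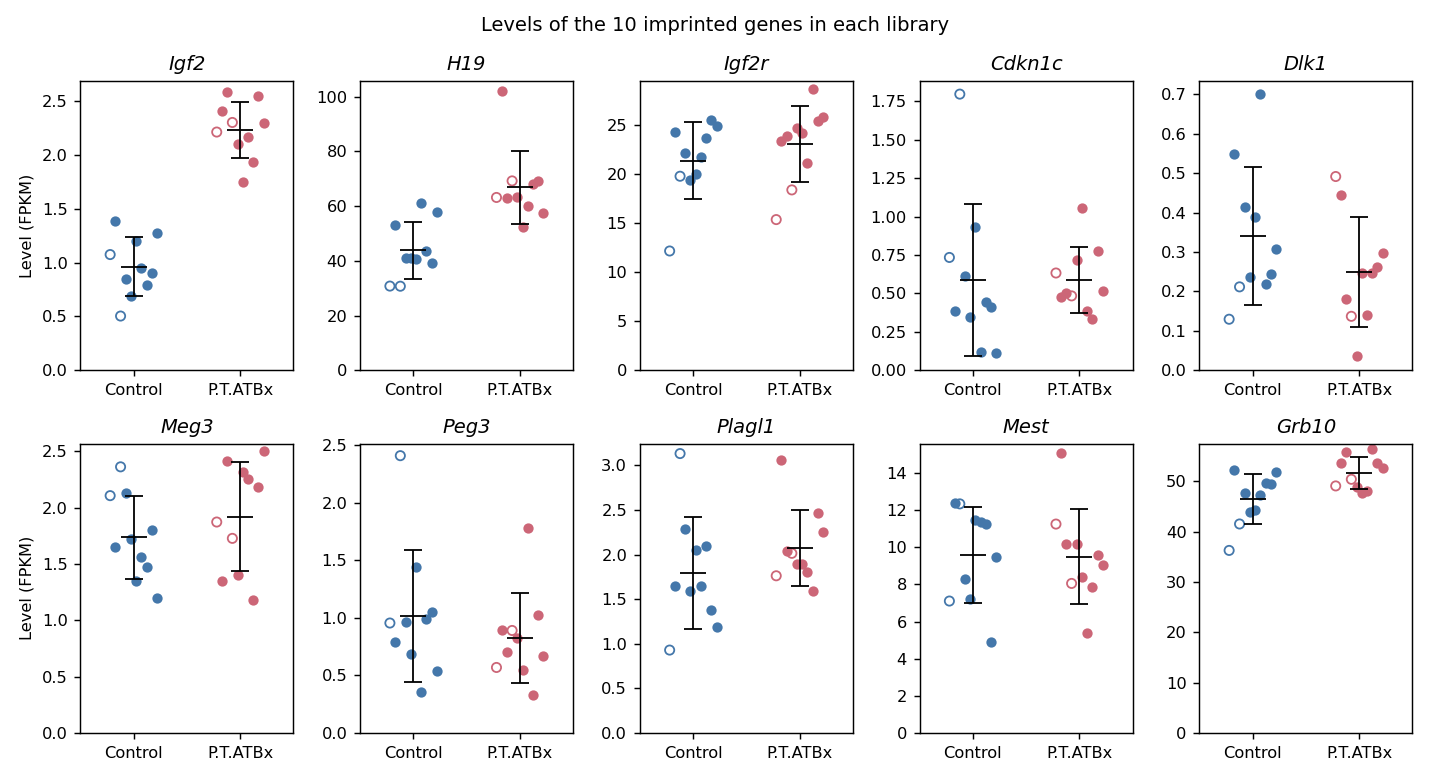
Level in FPKM (vertical axes, each from 0) of the 10 imprinted genes in the Control (blue) and P.T.ATBx (red) libraries, 10 of each. Black bars are the mean ± SD, and open circles are the 4 libraries that stood apart; for Igf2 the highest Control library, at 1.39, lies below the lowest P.T.ATBx library, at 1.74, while the groups overlap for the other 9 genes.

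The other paternally expressed genes of the set showed no such separation. Plagl1 encodes a zinc finger factor that is known to activate Igf2, H19 and other network genes. Its level ran from 0.929 FPKM (Control 1) through a median of 1.65 to 3.13 (Control 3) in Control, and from 1.59 (P.T.ATBx 8) through 1.96 to 3.06 (P.T.ATBx 2) in P.T.ATBx. The ranges overlap, with 9 of 10 P.T.ATBx libraries above the Control median and a log2 difference of 0.16 (SE 0.11). Mest encodes an enzyme of the hydrolase fold linked to fat cell size. Mest ran from 4.92 (Control 9) through 10.4 to 12.4 FPKM (Control 2) in Control, and from 5.37 (P.T.ATBx 7) through 9.32 to 15.1 (P.T.ATBx 2) in P.T.ATBx. The Mest means were 9.58 ± 2.59 and 9.50 ± 2.54 FPKM (SD, n = 10 each), closer than either SD.

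Peg3 encodes a zinc finger protein of growth and maternal behaviour. Levels of Peg3 ran from 0.357 (Control 7) through 0.959 to 2.41 FPKM (Control 3) in Control, and from 0.333 (P.T.ATBx 8) through 0.765 to 1.78 (P.T.ATBx 7) in P.T.ATBx. One library in each group stood well above the others, and the log2 difference was −0.13 (SE 0.14). Dlk1 encodes a transmembrane relative of the Notch ligands that restrains fat cell formation. It was the only member with a mean below 0.5 FPKM, so it was left out of the fit. It ran from 0.129 (Control 1) through 0.277 to 0.701 FPKM (Control 7), and from 0.0357 (P.T.ATBx 5) through 0.248 to 0.492 (P.T.ATBx 1). The means were 0.340 ± 0.176 and 0.248 ± 0.139 FPKM (SD, n = 10 each), a ratio of 0.730 and a log2 difference of −0.10. The ranges overlap, with Control 2 and Control 7 above every P.T.ATBx library.

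Among the maternally expressed members, Igf2r encodes the receptor that takes up IGF2 and delivers it to the lysosome. Its level ran from 12.2 (Control 1) through 21.9 to 25.5 FPKM (Control 9) in Control, and from 15.4 (P.T.ATBx 1) through 24.0 to 28.7 (P.T.ATBx 8) in P.T.ATBx. The lowest library of each group was one that stood apart, and the log2 difference was 0.11 (SE 0.11). Grb10 encodes an adaptor protein that dampens insulin and IGF receptor signalling. Grb10 ran from 36.2 (Control 1) through 47.4 to 52.1 FPKM (Control 2), and from 47.6 (P.T.ATBx 6) through 51.5 to 56.4 (P.T.ATBx 8). All 10 P.T.ATBx libraries were above the Control median and 5 were above the highest Control library. The Grb10 means were 46.4 ± 4.97 and 51.6 ± 3.23 FPKM (SD, n = 10 each), a log2 difference of 0.16 (SE 0.06).

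Cdkn1c encodes p57, an inhibitor of cyclin-dependent kinases. Levels of Cdkn1c ran from 0.111 (Control 10) through 0.427 to 1.80 FPKM (Control 3) in Control, and from 0.330 (P.T.ATBx 8) through 0.510 to 1.05 (P.T.ATBx 6) in P.T.ATBx. It rests on few recovered fragments, 3 to 62.7 in Control and 10 to 28 in P.T.ATBx, and only 17 libraries came out whole. Its means were 0.589 ± 0.494 and 0.587 ± 0.214 FPKM (SD, n = 10 each). Meg3 is a long non-coding RNA at the Dlk1 domain, where it is read from the other parental copy than Dlk1. Meg3 ran from 1.20 (Control 10) through 1.69 to 2.36 FPKM (Control 3), and from 1.18 (P.T.ATBx 8) through 2.03 to 2.50 (P.T.ATBx 10). The groups overlap throughout, with a log2 difference of 0.09 (SE 0.10).

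Set by mean level, Grb10 and H19 led in both groups, with Grb10 first in Control and H19 first in P.T.ATBx, and their ranges overlap in each. Igf2r and Mest came next. H19 and Igf2r did not overlap in Control, nor did Grb10 and Igf2r in P.T.ATBx, and every Mest value lay above every value of the 6 genes ranked below it. Igf2 ranked 8 of 10 in Control, next to Peg3, and 5 of 10 in P.T.ATBx, next to Plagl1, and it overlaps both of these neighbours. Cdkn1c and Dlk1 were the lowest in each group.

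Of the 9 members that entered the fit over all genes, 2, Igf2 and H19, were past the adjusted threshold of 0.05, where 0.845% of the 12788 rows tested were, 0.461% of them higher and 0.383% lower. Igf2 was also among the rows whose groups do not overlap, as were 0.0704% of rows in the higher direction and 0.0626% in the lower. Because this contrast chose the genes, nothing is read from these counts. The log2 difference was positive for 7 of the 9 and negative for 2, with a median of 0.11, beside a median of 0.00 over all rows. On values rescaled to 1 sum per library, the H19 difference was 0.61 (SE 0.15), and the count of members there, as without the 4 libraries that stood apart, was 1, Igf2.

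Several members overlap other genes, and the labels do not say whether the strand was used in counting. Igf2r overlaps Airn on the opposite strand, Mest overlaps Copg2, and Meg3 overlaps Rtl1, which was nearly at 0. Reads from such partners cannot be told apart here, so these levels are uncertain. Igf2 overlaps Igf2os, listed as Igf2as, whose highest library reached 0.0416 FPKM among Controls and 0.101 after P.T.ATBx.

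Relations between the members were taken within each group, so the difference between groups does not enter. Over 45 pairs in each group, with permutation p-values adjusted over all 90, 2 pairs passed the threshold by Pearson's r, both in Control. By Spearman's rho, 0 passed, and 12 pairs passed by Pearson's r before adjustment. Igf2 and H19 were not among them. In Control their r was 0.52 (permutation p = 0.122, adjusted p = 0.446, rho 0.41), and it was 0.45 among the P.T.ATBx libraries (permutation p = 0.194, adjusted p = 0.521, rho 0.42). Without the 2 libraries farthest from the Igf2 median r was 0.17 in Control, and 0.30 among P.T.ATBx libraries. At 10 libraries a group, a relation of this size could not be told from none.

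Cdkn1c and Peg3 moved together in Control, with r = 0.96 (permutation adjusted p = 0.00315) and rho = 0.87 (adjusted p = 0.105). Control 3 was highest for both genes. Without Control 3 and Control 6, the libraries farthest from the median, r was 0.85, and without the 4 libraries that stood apart the Control value was 0.93. In P.T.ATBx the same pair had r = −0.15. Whether the relation differs between the groups was not tested. Igf2r and Grb10 were the other pair, with r = 0.95 in Control (permutation adjusted p = 0.00315), rho = 0.90 (adjusted p = 0.0792) and r = 0.96 without Control 1 and Control 9. In P.T.ATBx their r was 0.52 (permutation adjusted p = 0.446).

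H19 ran against the growth inhibitor Cdkn1c in Control, with r = −0.82, which did not pass after adjustment (permutation p = 0.00243, adjusted p = 0.0729). It had r = −0.77 with Peg3, 0.77 with Grb10, 0.76 with Dlk1 and −0.73 with Meg3 in Control, and −0.61 with Meg3 in P.T.ATBx, and none of these passed. In P.T.ATBx, H19 and Plagl1 had r = 0.69, which was −0.01 without P.T.ATBx 2 and P.T.ATBx 6, so it rests on those libraries.

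**Figure D2:**
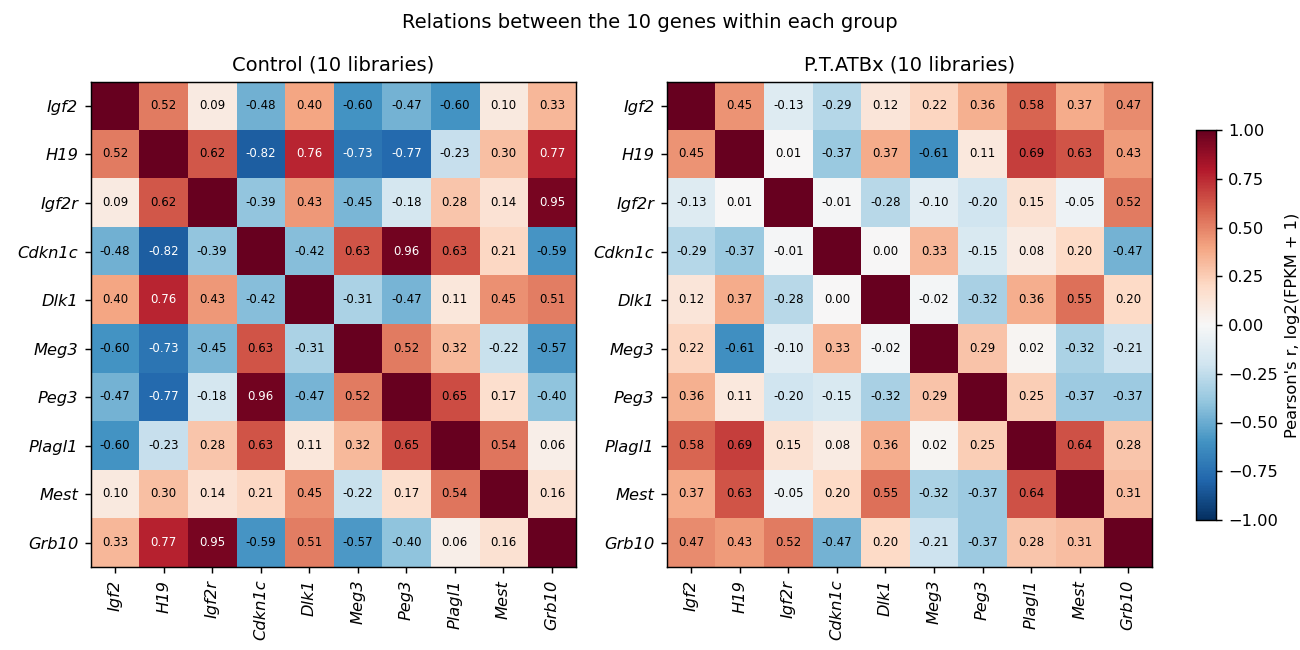
Pearson's r of log2(FPKM + 1) between each pair of the 10 genes, within the 10 Control libraries (left) and the 10 P.T.ATBx libraries (right), coloured from −1 (blue) to 1 (red). Cdkn1c with Peg3 (0.96) and Igf2r with Grb10 (0.95) are the darkest squares off the diagonal in Control, and Igf2 with H19 is 0.52 and 0.45.

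Some members followed the genes used here as markers of other cell types, which does not show the cells that held this RNA. Of 80 relations between a member and the summed markers of fibroblasts, skeletal muscle, adipocytes or leukocytes within a group, 3 passed by Pearson's r after adjustment, and 0 by rho. Igf2r ran with the fibroblast markers, with r = 0.93 in Control (permutation adjusted p = 0.0132) and 0.95 in P.T.ATBx (adjusted p = 0.00800 by permutation). Without the 2 farthest libraries these were 0.83 and 0.87. Grb10 followed the same markers in Control, with r = 0.89 (permutation adjusted p = 0.0333) and 0.78 without the 2 farthest. The fibroblast list itself had 0 of 11 tested genes past the threshold between groups. Their log2 differences were positive for 3 and negative for 8, with a median of −0.04. In limma, 2 of the 11 were below an unadjusted p of 0.05, where 13.6% of all rows tested were. Dcn, described below, was not on this list.

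Cdkn1c and Peg3 ran with adipocyte markers in Control, with r = 0.77 (permutation adjusted p = 0.141) and 0.74 (permutation adjusted p = 0.176), and H19 ran against them with r = −0.66 (permutation adjusted p = 0.333). In P.T.ATBx the values were 0.10 for Cdkn1c, 0.62 for Peg3 and −0.13 for H19, and without the libraries that stood apart those of Control were 0.52, 0.55 and −0.31. H19 also ran against leukocyte markers in P.T.ATBx, with r = −0.70 (permutation adjusted p = 0.267), and had r = −0.08 with them in Control. Without the libraries that stood apart these were −0.80 and −0.53. Dlk1 had r = −0.75 with the leukocyte markers in P.T.ATBx (permutation adjusted p = 0.176) and −0.47 in Control, and −0.81 in each group without those libraries. None of these passed. For Igf2 the adipocyte values were −0.09 among Control libraries and 0.12 after P.T.ATBx. Without the libraries that stood apart they were 0.48 and 0.12. None of the 8 adipocyte genes was past the threshold between groups, although all 8 had a negative log2 difference, with a median of −0.43. With the adipocyte level as a covariate, the log2 difference was 0.55 (SE 0.11) for H19 and 0.72 (SE 0.08) for Igf2. With the fibroblast, skeletal muscle or leukocyte level in its place, it was 0.59, 0.58 and 0.58 for H19 and 0.72 each time for Igf2.

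Muscle is a known site of Igf2 and H19 expression, and skeletal muscle markers varied. They summed to 1.20 to 101 FPKM in Control (median 2.86, highest in Control 10) and to 1.69 to 63.0 in P.T.ATBx (median 12.5, highest in P.T.ATBx 6). None of 10 tested muscle genes was past the threshold, and all 10 log2 differences were positive, with a median of 0.34. P.T.ATBx 6 had the lowest Igf2 and the lowest H19 of its group. Control 10 had 1.27 FPKM of Igf2 and 57.8 of H19, both above the Control medians. Whether muscle tissue was a source of either RNA was not tested. With the summed muscle markers, r in Control was 0.27 for Igf2 and 0.30 for H19. In P.T.ATBx these were −0.18 and 0.02, and none of them passed after adjustment. The 9 markers of muscle progenitors were low, but their median sum was 0.0551 FPKM among Control libraries, against 0.215 after P.T.ATBx. The highest sums went the other way, at 0.782 for Control 10 and 0.396 for P.T.ATBx 9. None of the 9 had a level high enough to test, so a group difference in them was not tested. Myf5 was listed at 0 in all 20 libraries and Pax7 at 0 in every Control library.

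**Figure D3:**
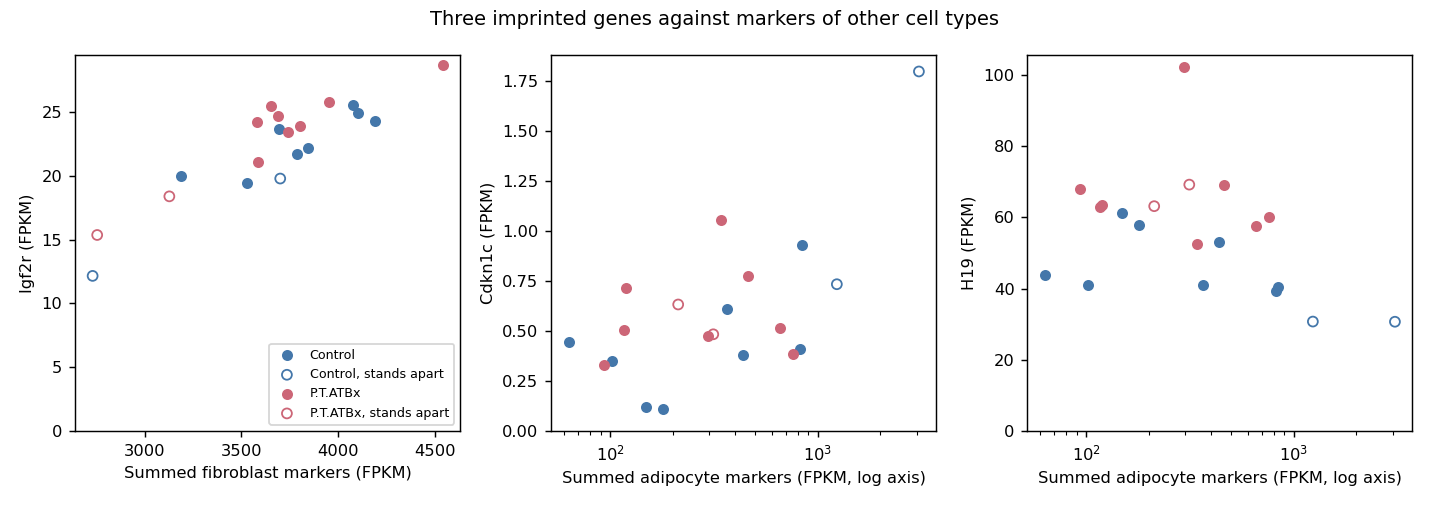
Igf2r against 12 summed fibroblast markers (left, horizontal axis not from 0), and Cdkn1c (middle) and H19 (right) against 8 summed adipocyte markers on a log axis, all in FPKM, with 1 point per library and open circles for the 4 that stood apart. Igf2r climbs with the fibroblast markers in both groups, and Control 3 holds the highest adipocyte sum, 3080 FPKM, with the highest Cdkn1c and the lowest H19.

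The neighbourhood of H19 on chromosome 7 was examined because neighbours can share enhancers. Within 1 Mb of the H19 start, 17 genes were tested, and 14 of them are not members. The start of Igf2 lies 88.7 kb from that of H19. Of the 14, 1 was past the threshold (background 0.845%), and their median log2 difference was 0.01, with 9 of them positive. That gene was Ctsd, which encodes the lysosomal protease cathepsin D, at −190.3 kb from the H19 start, on chromosome 7 at 142375910 to 142387827 (minus strand). Ctsd ran from 432 FPKM (Control 8) through 462 to 535 (Control 1), and from 509 (P.T.ATBx 8) through 554 to 700 (P.T.ATBx 5). It rose by 0.25 on the log2 scale (SE 0.06, limma adjusted p = 0.0321), and the groups overlap. The call was lost without any 1 of 9 libraries: Control 5, 7, 8, 9 or 10, or P.T.ATBx 1, 3, 4 or 10, with limma adjusted p from 0.0515 to 0.0705.

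The list of domain neighbours held 16 genes, of which 7 were tested and 1, Ctsd, was higher (0.461% of all rows tested). Tnnt3, the fast muscle troponin T gene near H19, had a log2 difference of 0.55 (SE 0.44, limma adjusted p = 0.641). Control 10 held 12.9 FPKM and P.T.ATBx 6 held 6.86, and these libraries also had the highest muscle markers. In 9 of 10 P.T.ATBx libraries Tnnt3 was above the Control median, and its log2 difference was 0.37 when P.T.ATBx 6 was left out and 0.88 when Control 10 was. Tspan32, a tetraspanin gene of blood cells, had −0.23 (limma adjusted p = 0.323), and Cd81, a widely expressed tetraspanin gene, had 0.04 (limma adjusted p = 0.654). Nctc1, a non-coding neighbour of H19, was listed at 0 in 9 libraries of Control and 5 of P.T.ATBx, and reached 0.0563 FPKM at most.

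**Figure D4:**
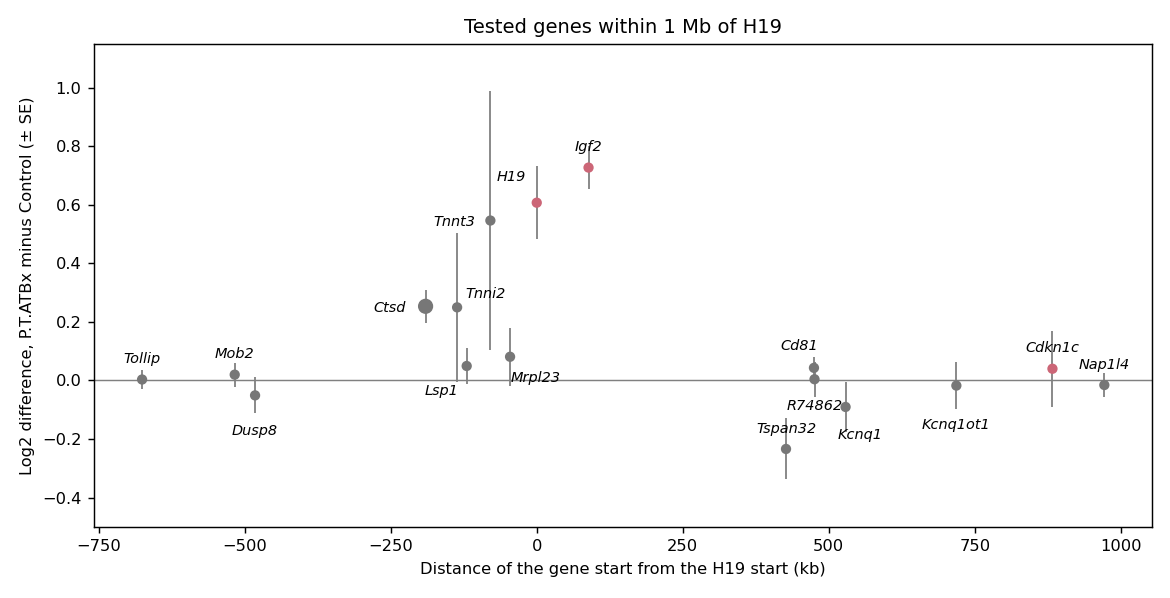
Log2 difference between P.T.ATBx and Control (vertical axis, on log2(FPKM + 1), bars are ± SE) of the 17 tested genes within 1 Mb of H19, against the distance of their start from the H19 start in kb. Members are red and are shown as a description, since H19 (0.61) and Igf2 (0.73) were chosen by this difference; of the other genes, in grey, the large point marks Ctsd (0.25), the 1 past the adjusted threshold.

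A further 12 genes of the imprinted network were taken as a list, and 8 had levels high enough to test. None was higher and 1 was lower, where 0.461% of all rows tested were higher and 0.383% lower. The median log2 difference was 0.02. The lower gene was Dcn, which encodes decorin, a small proteoglycan that binds collagen. Dcn ran from 598 FPKM (Control 9) through 667 to 743 (Control 7), and from 467 (P.T.ATBx 10) through 538 to 614 (P.T.ATBx 2). Every P.T.ATBx library lay under the median of Control, and the ranges meet only at their ends. Dcn fell by 0.31 on the log2 scale (SE 0.05, limma adjusted p = 0.00125), from a mean of 672 ± 40.1 to 543 ± 39.5 FPKM (SD, n = 10 each). It moved the other way from Igf2 and H19.

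Other network genes did not pass. Gatm, which encodes the first enzyme of creatine synthesis, had a log2 difference of −0.28 (limma adjusted p = 0.264), with every P.T.ATBx library under the median of Control. Ndn, which encodes the growth suppressor necdin, had −0.31 (limma adjusted p = 0.474). Control 3 held 5.11 FPKM of Ndn, where the next Control library had 2.30. Peg10, a retrotransposon-derived gene needed in the placenta, had 0.10 (limma adjusted p = 0.609).

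A wider list of 52 imprinted genes had 51 rows and 28 tested genes. None was past the threshold in limma, 6 of the 28 were below an unadjusted p of 0.05, where 13.6% of all rows tested were, and 14 were positive and 14 negative, with a median of −0.00. With limma's library weights 3 were past it: Airn, Tnfrsf22 and Tnfrsf23. Those weights also raised the count over all genes, from 108 to 306. Airn, the antisense RNA that silences the paternal copy of Igf2r, ran from 2.99 FPKM (Control 1) through 4.98 to 7.02 (Control 3), and from 5.19 (P.T.ATBx 7) through 6.37 to 9.41 (P.T.ATBx 9). All 10 P.T.ATBx libraries were above the Control median, with a log2 difference of 0.37 (SE 0.12, limma adjusted p = 0.132). Tnfrsf23 and Tnfrsf22, which encode decoy receptors for the death ligand TRAIL, lie in the imprinted region of Cdkn1c. They had −0.25 (limma adjusted p = 0.0853) and −0.22 (limma adjusted p = 0.163).

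Genes that keep imprints or build the CTCF insulator were also listed. Of 21 genes, 19 were tested and 0 passed in limma, with 3 of the 19 below an unadjusted p of 0.05 (13.6% of all rows) and a median log2 difference of −0.00. Ctcf itself averaged 36.0 ± 2.41 FPKM in Control against 34.9 ± 1.34 after P.T.ATBx (SD, n = 10 each), and its log2 difference was −0.04. The nearest to the threshold were Dppa3, a protector of methylation in the early embryo, at 0.30 (limma adjusted p = 0.262), the DNA methyltransferase gene Dnmt3b at 0.12 (limma adjusted p = 0.335) and Uhrf1, which brings the maintenance methyltransferase to DNA, at −0.14 (limma adjusted p = 0.363). DNA methylation was not measured.

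Of 9 genes for IGF2 signalling and for handling of Igf2 RNA, 7 were tested and 0 passed in limma, with 1 of the 7 below an unadjusted p of 0.05 (13.6% of all rows). Lin28b, an RNA-binding protein gene that blocks let-7 maturation, had 0.14 (limma adjusted p = 0.267). Irs1, the adaptor below the IGF1 and insulin receptors, had −0.15 (limma adjusted p = 0.481). Igf2bp2, which encodes an Igf2 RNA-binding protein, had −0.10 (limma adjusted p = 0.556).

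**Figure D5:**
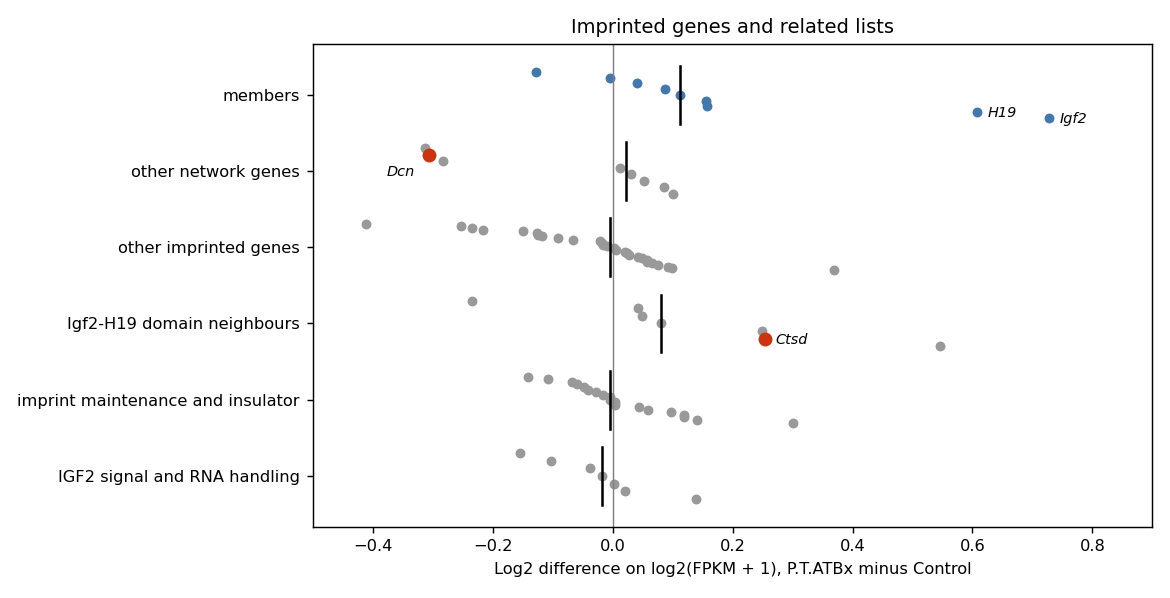
Log2 difference between P.T.ATBx and Control (horizontal axis, on log2(FPKM + 1)) of the tested genes of the 10 members and of 5 related lists, with 1 point per gene spread vertically for legibility. Vertical black lines are list medians and red points are genes of the 5 lists past the adjusted threshold, Ctsd at 0.25 and Dcn at −0.31. Members are blue and carry no test mark, since Igf2 (0.73) and H19 (0.61) were chosen by this difference.

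Genes whose levels ran most like those of Igf2 or H19 were found over the 20 libraries after each group was centred on its own mean, among 11405 rows with a mean of at least 1 FPKM. The points share libraries and depth, and no test is given. For Igf2 the highest r were with Ttc3 (0.73), Taf6 (0.72), Tgfb3 (0.69), Zfp72 (0.69) and Pik3r3 (0.68), and the lowest with Itpripl1 (−0.75), Cmtm6 (−0.69) and Ifi205 (−0.68). H19 came at rank 147 for Igf2, with r = 0.50. For H19 the highest r were with Cul4a (0.87), Mecom (0.84), Sept8 (0.83), P4ha1 (0.83) and Evi5 (0.83), and the lowest with Tmem176b (−0.89), Bckdha (−0.84) and Nr1h3 (−0.83). Among members, Grb10 ranked 134 for H19 with r = 0.66, Igf2 ranked 796 and Meg3 ranked 11279 with r = −0.65. Within groups, many genes thus ran closer to H19 than Igf2 did.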

How the data were processed

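The authors deposited 1 table of FPKM values, with 23402 rows and 20 library columns. RNA came from a column kit and libraries from a stranded total RNA kit, per the labels' protocols. The build was mm10, per the submitters' processing notes. For the aligner, the quantification tool and the annotation, names were not given in the sources used here, and read totals are unknown.

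Values were analysed as log2(FPKM + 1). The 12788 rows with a mean of at least 0.5 FPKM were fitted in limma 3.58.1 (R 4.3.3) with group as the only term, trended and robust moderation, two-sided, and Benjamini-Hochberg adjustment over all of them at 0.05. The fit was tested on simulated data. Correlations used two-sided permutation tests with 100000 resamples. Fragments were recovered from the spacing of a gene's values where at least 17 libraries came out whole. The members and lists were chosen with earlier results of these data known. Named genes were all members; of each list, those past the threshold and up to 3 more with the smallest p; and the rows most and least like Igf2 and H19, leaving out predicted genes. Coordinates are from RefSeq GRCm38. The alternatives, with their effect, are given at the end; those without the 4 libraries that stood apart and with the adipocyte covariate were chosen after seeing the data.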

Additional observations from a re-analysis of the deposited data

Results flagged for a closer look

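In 10 of 54 gene and group combinations, 1 library lay far from the other 9 by Dixon's test of the gap against the range. For independent normal values chance gives about 1 in 20. FPKM values can be skewed and the combinations share libraries, so no excess over chance is read from this count. H19 was 102.164 FPKM in P.T.ATBx 2, and the next library had 69.2. Igf2r was 12.2 FPKM in Control 1, below the next at 19.4. Cdkn1c was 1.80 FPKM in Control 3, above the next at 0.931, and Peg3 was 2.41 in the same library, above 1.44. Peg3 was also 1.78 FPKM in P.T.ATBx 7, above 1.03. Ndn was 5.11 FPKM in Control 3, above 2.30. Tnnt3 was 12.9 FPKM in Control 10, above 2.68, and 6.86 in P.T.ATBx 6, above 3.14. Dppa3 was 1.51 FPKM in Control 5, above 0.709. Igf2bp2 was 17.2 FPKM in Control 1, below 22.8. Control 1 and Control 3 hold 5 of the 10 and are among the libraries that stood apart.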

How the results depend on the processing

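Of 330 alternative values over 11 results, 308 kept their direction and their side of the threshold or stayed within the spread. The count of all genes called, 108, was 49 after rescaling to 1 sum per library, 306 with limma's arrayWeights, 193 with a leukocyte covariate, 67 without the 4 libraries that stood apart, and 69 (without P.T.ATBx 4) to 193 (without Control 1) when 1 library was left out. Members called went from 2 to 1 on the rescaled values and to 1 without the 4 libraries. The wider list of imprinted genes went from 0 to 3 with arrayWeights, and to between 0 and 1 with 1 library left out, the 1 being Tnfrsf22 without Control 1. Domain neighbours called ran from 0 to 1 with 1 library left out. The Igf2 difference was 1.17 with a pseudocount of 0.1, and ran from 0.69 to 0.76 with 1 library left out. That of H19 ran from 0.54 to 0.66. The r of Igf2 with H19 in Control was 0.63 on the rescaled values, and ran from 0.31 (without Control 3) to 0.70 (without Control 1) when 1 library was left out; the first and the last of these passed an unadjusted p of 0.05. In P.T.ATBx it ran from 0.22 to 0.55. The cause of these shifts was not tested. The correlations of same-numbered libraries ran from −0.31 to 0.39, with a median of 0.08 and 5 of 10 pairs above 0.1. The labels state no pairing, and whether the numbers are one was not tested. With the replicate number as a block, 124 genes were called, 2 of them members, with log2 differences of 0.73 for Igf2 and 0.61 for H19, and 3 Control libraries correlated best with their own number. Depth limits the low members most: Cdkn1c rests on as few as 3 recovered fragments in a library.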
